A study of Rattus norvegicus with 28 samples.

Results

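Chronically injured rat lungs were set against uninjured ones after both had been ventilated with breaths of unchanging volume, and the comparison was read across all genes of the deposited table. The chronic_VCV group held 3 libraries, numbered 067, 069 and 073 in their titles, and the healthy_VCV group held 4 libraries, numbered 025, 057, 060 and 062. These are 7 of the 28 libraries of the series, picked by their group names and not by any measured value. Each library is polyadenylated RNA from the right upper lung lobe of a Sprague Dawley rat, sequenced on an Illumina instrument with the strand kept. The chronic_VCV rats were ventilated after chronic lung injury, and the healthy_VCV rats had no earlier lung injury. The labels used here do not give the agent that caused the chronic injury or how long ventilation lasted. Further groups give other views of chronic injury. Ventilation with variable breath volumes gave chronic_noisy (n = 3) and healthy_noisy (n = 3), and lungs that were not ventilated gave control_chronic (n = 5, taken 14 days after injury was induced) and control_blank (n = 3).

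A chronically injured lung that has been scarred stiffens, and ventilation then stretches the remaining airspaces unevenly. Stretched cells move the co-activators YAP and TAZ into the nucleus, where they act through TEAD factors on genes such as Ctgf and Cyr61, and they switch on immediate early factors of the AP-1 and EGR families. Scarring itself is known for collagen deposition by myofibroblasts, remodelling of the basement membrane and gain of macrophages.

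Reads recovered from the deposited values numbered 11280590 (067), 16842768 (069) and 14612821 (073) in chronic_VCV, against 17855648 to 21510253 in healthy_VCV. The labelled tissue was checked with lung markers. Sftpc, the surfactant protein of alveolar type 2 cells, had deposited values of 226410 to 272419 in chronic_VCV and 178711 to 232978 in healthy_VCV, and Ager, the marker of alveolar type 1 cells, 42154 to 54949 and 38424 to 52102. The titles start with a library number whose first 2 digits the labels do not explain, and this number series differs between the groups. All 3 chronic_VCV libraries carry 15, while healthy_VCV holds 1 library of series 15 (062) and 3 of series 14. Chronic_VCV_067 stood apart in depth and in the first principal component of the 7 libraries, which held 46.8% of the variance and gave it a score of 67.6, against 18.1 and 30.4 for 069 and 073. Healthy_VCV_062, the library of series 15, lay nearest to chronic_VCV on that axis at -15.6, with -36.0 to -30.2 for the other healthy_VCV libraries. Changes without 067 and within series 15 are given for the leading genes, and the text states which calls held. Within series 15 the lone healthy_VCV library is assumed to vary like the other groups. Within this comparison, injury and number series can be separated through library 062 alone.

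Between chronic_VCV and healthy_VCV, 367 of 14908 genes tested differed, a background of 2.46%, at an adjusted p under 0.05 in limma's moderated test. Of these, 245 genes (1.64%) were higher in chronic_VCV and 122 (0.818%) were lower. At an unadjusted p under 0.05, 3958 genes (26.5%) differed. EdgeR called 382 genes, quantile normalization 686 and DESeq2 1423, which are the backgrounds for list counts of those fits. A fold change here is on the scale of log2(deposited value + 1), which understates changes of low genes. The groups did not overlap for 4494 genes, or 30.1% of those tested (13.9% higher, 16.2% lower), and the median change of all genes was -0.02. They did not overlap for 235 of the 245 higher and 120 of the 122 lower genes. The 15 highest and 15 lowest named genes were chosen to have no overlap, so their separation is not a further result. All 367 genes kept their sign without 067, within series 15 and with the number series as a covariate. The calls did not hold as well: 2 genes passed without 067, 2 with the covariate and 0 within series 15, where 653 genes had an unadjusted p under 0.05. Among fits that each left out 1 of the 7 libraries, Ctgf and Sptb were the genes called in all 7, and 12 of the 367 were called in at least 6. Every other call of this comparison named below was thus lost without 067, and all of them within series 15.

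**Figure D1:**
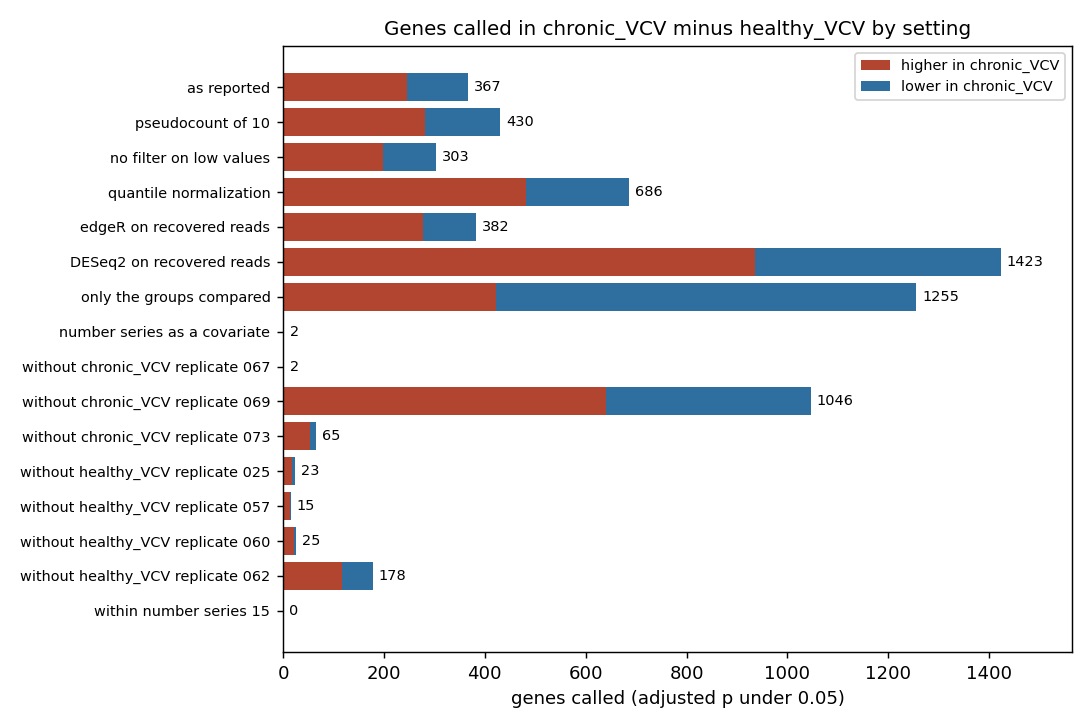
Number of genes called in chronic_VCV minus healthy_VCV (x axis, adjusted p under 0.05) for each way of fitting (y axis), split into genes higher and lower in chronic_VCV. As reported 367 genes were called, with 0 within number series 15 and 1423 with DESeq2.

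The gene with the smallest adjusted p was Ctgf, a secreted matricellular protein that promotes fibroblast activity. It had deposited values of 4759 (067), 10245 (069) and 5774 (073) in chronic_VCV, against 1295, 1652, 1743 and 1663 in healthy_VCV. Every chronic_VCV library lay above every healthy_VCV library, and the library of series 15 among the healthy ones did not stand out. The change was 2.05 ± 0.23 (log2, SE) or 4.15-fold, with an adjusted p of 6.02e-05 in limma's test. It was 2.28 without 067 (adjusted p = 4.11e-05 in limma), 1.98 within series 15 and 2.02 with the series as a covariate (adjusted p = 0.00594).

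Cyr61, a close relative of Ctgf that binds integrins, had 10536 (067), 4622 (069) and 1908 (073) in chronic_VCV and 1904, 957, 1430 and 969 in healthy_VCV. The lowest chronic_VCV library barely exceeded the highest healthy_VCV library. The change was 1.84 ± 0.48 (adjusted p = 0.046 in limma), 1.24 without 067 (adjusted p = 0.299) and 2.22 within series 15. Gadd45b, which takes part in stress signalling, had 5624, 3887 and 2802 in chronic_VCV, against 2164, 2111, 1785 and 2366 in healthy_VCV, without overlap. Its change was 0.91 ± 0.21 (adjusted p = 0.0282 in limma). These 3 genes rose among the 15 tested members of the stretch and YAP list and 0 fell, beside 1.64% and 0.818% of all genes. The list's median was 0.09, beside -0.02 for all genes. Members that did not pass include Ankrd1 at 0.16, F3, the trigger of clotting, at 0.95 and the factor Tead1 itself at -0.89. Without 067, 1 member of the list, Ctgf, was still called.

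Upstream sequences of Ctgf, Cyr61 and Acta1 are shown because TEAD factors bind GGAATG. Ctgf differs from the others in how often its window holds it. Acta1 is not on the stretch and YAP list, and only windows that held the motif are printed. The windows are the 250 bases before the annotated start in RefSeq's GRCr8, which is not the build of the counts. Capitals mark GGAATG or its other strand CATTCC, both searched, and the motif was chosen after the values were seen. Ctgf (RefSeq symbol Ccn2, chr1:22624615-22624864, minus strand), Cyr61 (Ccn1, chr2:237225690-237225939, minus strand) and Acta1 (chr19:68784195-68784444, minus strand) are given 5' to 3' on the gene's strand.
Ctgf: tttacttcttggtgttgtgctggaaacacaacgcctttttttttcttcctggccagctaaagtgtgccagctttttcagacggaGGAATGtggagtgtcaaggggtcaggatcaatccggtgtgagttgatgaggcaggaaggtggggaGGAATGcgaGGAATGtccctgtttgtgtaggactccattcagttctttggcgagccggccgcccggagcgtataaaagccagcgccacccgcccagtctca
Cyr61: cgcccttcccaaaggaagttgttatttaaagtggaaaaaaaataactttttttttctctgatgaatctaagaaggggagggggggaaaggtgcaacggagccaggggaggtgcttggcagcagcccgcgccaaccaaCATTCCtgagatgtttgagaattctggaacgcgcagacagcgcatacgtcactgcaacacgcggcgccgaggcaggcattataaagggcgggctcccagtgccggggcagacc
Acta1: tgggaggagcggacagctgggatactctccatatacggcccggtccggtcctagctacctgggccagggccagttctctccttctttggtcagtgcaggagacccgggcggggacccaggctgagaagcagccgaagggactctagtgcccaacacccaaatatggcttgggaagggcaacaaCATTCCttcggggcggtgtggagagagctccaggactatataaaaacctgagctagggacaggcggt
The Ctgf window held 3 copies, 166, 101 and 92 bases before the start, the Cyr61 window held 1 on the opposite strand, and the Acta1 window held 1 on the opposite strand 67 bases before it. Of 33469 windows of this length, 4037 (12.1%) held at least 1 copy and 27 (0.0807%) held 3 or more. Among the 245 genes higher in chronic_VCV, 156 were matched to a window and 14 of those (8.97%) held the motif, with Ctgf the 1 that held more than 1 copy. The windows of Fosl1, Tnfrsf12a, Jund and Gadd45b held none, which says only that these letters are not in them.

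Immediate early factors were higher mainly in 067. Fosl1, an AP-1 subunit of the Fos family, had 1248 (067), 54.8 (069) and 189 (073) in chronic_VCV, against 21.5, 18.8, 20.2 and 28.4 in healthy_VCV. The groups did not overlap, but 067 lay far above the other chronic_VCV libraries. Its change of 3.36 ± 0.60 was the largest rise among named genes (adjusted p = 0.0116 in limma), with 2.16 without 067 (adjusted p = 0.0855) and 3.0 within series 15. Jund, another AP-1 subunit, had 6507, 2274 and 2010 in chronic_VCV and 425, 860, 580 and 1041 in healthy_VCV, a change of 2.17 ± 0.55 (adjusted p = 0.0447 in limma). Its highest healthy_VCV library was 062, and across the ventilated chronic and healthy libraries its levels ran from 1041 to 6507 in series 15 and from 219 to 860 in series 14. These 2 factors rose among 21 tested and 0 fell, beside 1.64% and 0.818% of all genes. In the list 19 of 21 members lay above 0, and the median was 0.97. Quantile normalization called 5 of them higher, edgeR 8 and DESeq2 13. Without 067 the median was 0.07 and 0 members were called. Atf3, a stress-induced repressor, shows the same dependence: 13865 in 067 but 358 and 696 in 069 and 073, against 277 to 481 in healthy_VCV, with a change of 2.0 ± 0.71 (adjusted p = 0.0925 in limma). Egr1 had 20310, 2716 and 710 in chronic_VCV, against 805 to 1778 in healthy_VCV, and Fos 2787, 723 and 276, against 551 to 1990. In both, the groups overlapped.

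Further genes were also highest in 067. Tnfrsf12a, the receptor of the cytokine TWEAK, had 3308 (067), 433 (069) and 1259 (073) in chronic_VCV, against 250, 273, 237 and 265 in healthy_VCV. All 3 chronic_VCV values exceeded the tight healthy_VCV range, with a change of 2.25 ± 0.39 (adjusted p = 0.0108 in limma), 1.53 without 067 (adjusted p = 0.0855) and 2.20 within series 15. Nab2, which represses EGR factors, rose by 1.41 ± 0.32, and Epha2, an ephrin receptor, by 1.05 ± 0.24 (adjusted p = 0.0282 for both in limma), with means of 1599 ± 1305 and 2709 ± 1769 in chronic_VCV (SD, n = 3) and 495 ± 69.7 and 1151 ± 40.1 in healthy_VCV (SD, n = 4). Both genes were picked after their values were seen. Plk3, a stress kinase, had 2258, 694 and 682 in chronic_VCV and 392 to 512 in healthy_VCV, a change of 1.20 ± 0.26 (adjusted p = 0.0282 in limma). Leaving out 067 brought these 3 changes to 0.78, 0.55 and 0.63, none of which passed. Of the 245 genes higher in chronic_VCV, 189 had their highest chronic_VCV value in 067, as did 6029 of all 14908 genes.

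Inflammatory mediators did not pass the test. None of the 36 cytokines and chemokines tested was called in limma, with a list median of 0.44, which was 0.12 without 067. At an unadjusted p under 0.05, 7 were higher and 3 lower, beside 26.5% of all genes in either direction. In this list edgeR called 1, and DESeq2 called 5 higher and 1 lower. Ccl2, which draws monocytes, had 1007 (067), 61.9 (069) and 176 (073) in chronic_VCV, against 24.4 to 61.3 in healthy_VCV, a change of 2.61 ± 1.01 (adjusted p = 0.112 in limma). Il6 had 171, 1.01 and 6.66 in chronic_VCV and 0 to 6.13 in healthy_VCV. Il1b, the main secreted form of interleukin 1, had overlapping groups and a change of 0.00 ± 0.53.

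**Figure D2:**
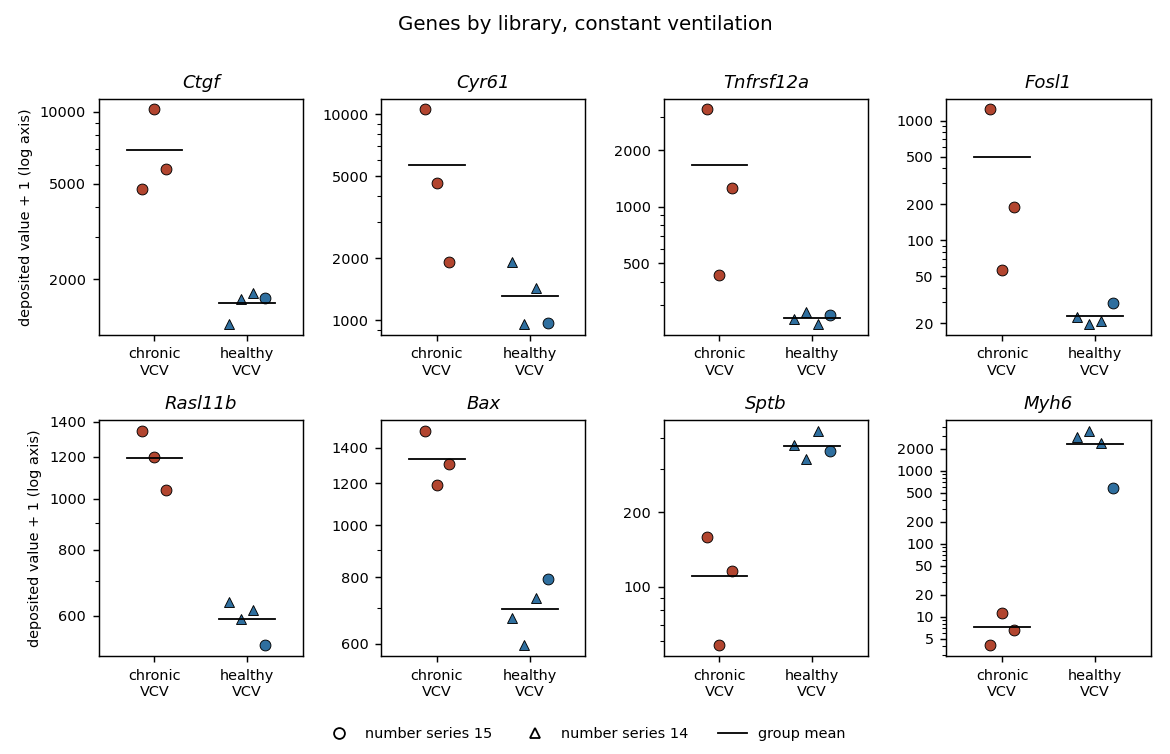
Deposited value + 1 (y axis, log) of 8 genes in each chronic_VCV library (left, n = 3) and healthy_VCV library (right, n = 4). Circles are libraries of number series 15, triangles of series 14, and lines are group means. The Ctgf values of chronic_VCV start at 4759 and those of healthy_VCV end at 1743, while the single high point of Fosl1, 1248, is library 067.

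A set of smaller rises was even across the 3 chronic_VCV libraries. Rasl11b, a small Ras-like GTPase, had 1344, 1198 and 1037 in chronic_VCV, against 636, 591, 614 and 527 in healthy_VCV. The groups were far apart for their spread, with a change of 1.01 ± 0.16 (adjusted p = 0.0068 in limma). It was 1.17 with the series as a covariate (adjusted p = 0.0282), the 1 call beside Ctgf in that fit, and 0.92 without 067 (adjusted p = 0.0772). Bax, a pore-forming trigger of apoptosis, had 1504.7, 1189 and 1301 in chronic_VCV and 670, 595, 729 and 791 in healthy_VCV, a change of 0.94 ± 0.16 (adjusted p = 0.00829 in limma). Bax and Plk3 rose among 21 tested p53 targets and senescence genes and 0 fell, beside 1.64% and 0.818% of all genes. The list's median was 0.10. The cell cycle inhibitor Cdkn1a, the best known p53 target, was at 0.02. Cd63, a tetraspanin of late endosomes, averaged 8075 ± 788 in chronic_VCV (SD, n = 3) and 4514 ± 428 in healthy_VCV (SD, n = 4), a change of 0.84 ± 0.14. Rhoc, a GTPase that acts on the actin cytoskeleton, averaged 3277 ± 642 in chronic_VCV and 1666 ± 180 in healthy_VCV, a change of 0.96 ± 0.19 (adjusted p = 0.0164 in limma). Without 067 the changes of Bax, Cd63 and Rhoc were 0.84, 0.76 and 0.81, none of them called. Rasl11b, Cd63 and Rhoc were named after their values were seen.

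The other named rises were of low genes. Acta1, the actin of skeletal muscle, had 259, 138 and 267 in chronic_VCV, against 34.79, 44.15, 56.95 and 45.02 in healthy_VCV. Its groups were well apart, and the change was 2.23 ± 0.43 (adjusted p = 0.0164 in limma), with 2.08 without 067 and 2.21 within series 15. The other 6 tested skeletal muscle markers did not pass, from -3.35 for the creatine kinase Ckm to 1.01 for the myosin Myh2. Capn12, a calpain protease, had 524, 197 and 187 in chronic_VCV and 30.7, 45.1, 52.6 and 56.9 in healthy_VCV, a change of 2.55 ± 0.55 (adjusted p = 0.0274 in limma). Slc24a5, a cation exchanger of pigment cells, rose by 2.70 ± 0.70, Angptl6, a secreted angiopoietin-like protein, by 2.17 ± 0.48 and Pkd2l2, a polycystin-like channel, by 2.08 ± 0.47. Capn12 and Angptl6 also followed the number series, and Slc24a5 did so with overlap. Angptl6 ran from 44.2 to 205 in the 7 ventilated chronic and healthy libraries of series 15 and from 9.03 to 34.2 in the 6 of series 14, and Capn12 from 56.9 to 524 against 30.7 to 52.6. The remaining 5 of the 15 highest named genes carry only locus names.

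Fibrillar collagen genes gave no call. None of 24 fibrillar collagen and crosslinking genes was called in limma, and their median was -0.03. An unadjusted p under 0.05 was reached by 1, a rise, beside 26.5% of all genes. In edgeR and DESeq2, 0 were called as well. Col1a1, the main collagen of scars, had 9725 (067), 47131 (069) and 13456 (073) in chronic_VCV, against 28770, 28111, 23988 and 18766 in healthy_VCV. Library 069 was above and the other 2 below every healthy_VCV library, so that the change was -0.42 ± 0.45 (adjusted p = 0.562 in limma), with a 95% interval of -1.29 to 0.45. It was 0.04 without 067. Col3a1 was at -0.45 ± 0.36, and Postn, a marker of activated fibroblasts, had 6914, 12464 and 9581 in chronic_VCV, against 10929 to 12917 in healthy_VCV, a change of -0.32 ± 0.34. Fn1, the fibronectin gene, averaged 16381 ± 7938 in chronic_VCV (SD, n = 3) and 26646 ± 6803 in healthy_VCV (SD, n = 4).

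Among elastic fibre and matricellular genes, 1 of 28 rose and 1 fell, beside 1.64% and 0.818% of all genes. The list's median was -0.19. Efemp2, which helps assemble elastin, had 735, 699 and 636 in chronic_VCV and 509, 352, 489 and 402 in healthy_VCV, a change of 0.67 ± 0.17 (adjusted p = 0.0451 in limma). Fbln2, a fibulin of the matrix, had 171, 56.8 and 209 in chronic_VCV and 533, 502, 372 and 336 in healthy_VCV, a change of -1.74 ± 0.45 (adjusted p = 0.0451 in limma). Col4a3, a basement membrane collagen of the alveolar wall, fell to 4372, 7653 and 5672 in chronic_VCV, against 11089, 12172, 9839 and 10554 in healthy_VCV. It was the 1 of 19 basement membrane genes called in limma, at -0.92 ± 0.23 (adjusted p = 0.0414), in a list with 16 members below 0 and a median of -0.52, which was -0.04 without 067.

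Regulators of matrix and growth gave few calls, to be read beside the 2.46% called over all genes tested. Plau, the urokinase that activates plasminogen, had 430, 490 and 890 in chronic_VCV and 283, 222, 278 and 239 in healthy_VCV, a change of 1.17 ± 0.30 (adjusted p = 0.0451 in limma). It was the 1 call among 21 matrix proteases and inhibitors, and with S100a10, a plasminogen receptor subunit, made up the 2 of 22 coagulation and fibrinolysis genes that rose. S100a10 overlapped between groups, at 2208 in 069 against 2266 in the highest healthy_VCV library. Fstl3, an activin inhibitor, rose by 0.54 ± 0.14 and was the 1 call among 33 TGF-beta and BMP genes, whose median was -0.03. Pmepa1, a feedback inhibitor of TGF-beta signalling, was not on that list and was named after its values were seen: 2836, 2340 and 1665 in chronic_VCV, against 1250, 1261, 1065 and 1174 in healthy_VCV, a change of 0.91 ± 0.15 (adjusted p = 0.00829 in limma). Snai1, a factor of epithelial-mesenchymal transition chosen in the same way, rose by 1.00 ± 0.22 (adjusted p = 0.0282 in limma). Pdgfa, a growth factor for myofibroblasts, rose by 0.70 ± 0.18 as the 1 call among 38 growth factor genes. Sfrp2, a secreted Wnt inhibitor, fell by 1.61 on the log2 scale (SE 0.36) as the 1 call among 27 Wnt genes. None of the genes in this paragraph passed without 067.

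Cardiac muscle genes made up the largest falls, and 12 of the 15 lowest named genes are genes of striated muscle. Myl7, the atrial myosin light chain, had 3.06, 4.06 and 1.11 in chronic_VCV, against 2055, 2127, 1564 and 329 in healthy_VCV. All healthy_VCV libraries were far higher, and the lowest of them was 062, the library of series 15. The change was -8.45 ± 1.77 (adjusted p = 0.027 in limma), and -6.56 within series 15. Myh6, the atrial myosin heavy chain, had 3.06, 10.1 and 5.55 in chronic_VCV and 2865, 3494, 2370 and 573 in healthy_VCV, a change of -8.17 ± 1.55. Myoglobin, Mb, had 3 reads in all of chronic_VCV and 1102 in healthy_VCV, which makes it 199-fold lower per read sequenced (95% interval 68.3 to 967, counting error only). Of 10 cardiac markers tested, 8 fell and 0 rose, beside 0.818% and 1.64% of all genes. Their median was -4.41, which was -2.52 within series 15. It was -4.36 without 067 and -1.48 with the series as a covariate, with 0 called in both of these fits. Quantile normalization called 9 lower, edgeR 6 and DESeq2 all 10. Tnni3 at -2.24 and Actc1 at -2.13 did not pass.

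Summed cardiac marker levels were 273 to 655 in chronic_VCV and 1891 to 10036 in healthy_VCV, and no marker of the list was at 0 in every library of a group. The same sum was 2208 to 8532 in chronic_noisy and 337 to 1472 in healthy_noisy, and 930 to 1314 in control_chronic and 10145 to 18262 in control_blank. Myl7 ran from 0 to 329 in the 7 ventilated chronic and healthy libraries of series 15 and from 433 to 2296 in the 6 of series 14. How much cardiac muscle each lung sample held, and its part in these falls, was not tested. In these bulk samples, fewer cells of a type cannot be told apart from less RNA per cell. The part of the number series in these falls cannot be told apart from injury beyond the within-series and covariate values. The within-series values rest on 1 healthy_VCV library. Other muscle genes on the named list were Actn2, Csrp3, Smpx, Myoz2, Myh7, Mybpc3, Casq2, Tnnt2 and Mybphl, with changes from -5.93 to -2.65. Casq2, the calcium store protein of the heart, was called in 5 of the 7 fits that left out a library. Pln, a calcium pump regulator of cardiac and smooth muscle, fell by 1.76 on the log2 scale and Rgs5, a pericyte gene, by 1.17. They were the 2 of 10 smooth muscle and pericyte markers called, beside 2.46% of all genes.

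The erythroid list gave 1 call of 11 tested, Hbb, beside 2.46% of all genes, and Sptb and Add2 lie outside it. Sptb, the beta spectrin of the red cell membrane, fell to 157.7, 56.79 and 114.3 in chronic_VCV, against 374, 326, 426 and 354 in healthy_VCV. The groups were apart, and 062 lay among its group. The change was -1.86 ± 0.33 (adjusted p = 0.013 in limma), -2.18 without 067 (adjusted p = 0.0276), -1.8 within series 15 and -1.61 with the covariate (adjusted p = 0.126). Sptb was not on the erythroid list and was named after its values were seen, as was Add2, a spectrin-binding adducin, at -1.62 ± 0.43 (adjusted p = 0.0482 in limma). Hbb, beta globin, had 13936, 6323 and 10280 in chronic_VCV and 40589, 23205, 24247 and 29522 in healthy_VCV, a change of -1.57 ± 0.42 (adjusted p = 0.0483 in limma), the 1 call of 11 erythroid genes. All 11 lay below 0, with a median of -1.08. The summed level of the list was 30489 to 93302 in chronic_VCV and 86933 to 152200 in healthy_VCV, and no member was at 0 in every library of a group. Globin genes have near-identical copies, and how shared reads were counted is not given in the sources used here.

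Cell division genes gave 3 falls. Ccnb1, the cyclin of mitosis, had 23.0, 58.8 and 31.1 in chronic_VCV, against 88.6, 141, 141 and 98.0 in healthy_VCV, without overlap. Its change was -1.69 ± 0.32 (adjusted p = 0.0164 in limma), -1.40 without 067 and -1.47 within series 15. Cenpf, a kinetochore protein, averaged 128 ± 37.7 in chronic_VCV (SD, n = 3) and 328 ± 80.1 in healthy_VCV (SD, n = 4), and Nusap1, a spindle protein, 53.4 ± 12.9 and 129 ± 17.0. These 3 fell among 32 tested and 0 rose, beside 0.818% and 1.64% of all genes. In the list 27 members lay below 0, with a median of -0.71. Without 067 the median was -0.82 and 0 were called, while edgeR called 3 lower and DESeq2 11. At an unadjusted p under 0.05, 20 members were lower and 1 higher, beside 26.5% of all genes in either direction.

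Immune cell markers gave few calls. Trem2, a lipid receptor of macrophages, had 50.5, 196 and 57.7 in chronic_VCV, against 34.0, 21.6, 14.9 and 26.1 in healthy_VCV, and C1qa, a complement subunit made by macrophages, 1315, 1599 and 1005, against 710, 727, 631 and 919. Neither gene's groups overlapped, and their changes were 1.8 ± 0.41 and 0.79 ± 0.19 (adjusted p = 0.0282 and 0.0364 in limma). They were the 2 called of 22 interstitial macrophage markers, whose median was -0.09, beside 2.46% of all genes called. The other C1q genes tested, C1qb at 0.37 and C1qc at 0.22, did not pass. Neutrophil markers had 17 of 18 members below 0, a median of -0.56 and 0 calls in limma, with 4 lower at an unadjusted p under 0.05, 0 called in edgeR and 1 lower in DESeq2. S100a9, a protein abundant in neutrophils, had 14341 (067), 4761 (069) and 7292 (073) in chronic_VCV and 10011 to 14701 in healthy_VCV, and the groups overlapped. All 10 platelet markers were below 0, with a median of -0.54 and 0 calls in limma, edgeR and DESeq2, and 2 had an unadjusted p under 0.05. The summed level of the platelet markers was 700 to 874 in chronic_VCV and 1110 to 1295 in healthy_VCV. Over all genes tested, 26.5% had an unadjusted p under 0.05.

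Lymphocyte lists held single falls. Cr2, the complement receptor of B cells and follicular dendritic cells, had 6.12, 0 and 21.1 in chronic_VCV and 103, 41.3, 45.6 and 22.9 in healthy_VCV, a change of -3.12 ± 0.79 (adjusted p = 0.0446 in limma), with its lowest healthy_VCV value in 062. Cd28, a co-stimulator of T cells, fell by 1.70 on the log2 scale (SE 0.45, adjusted p = 0.0454 in limma). Batf3, a factor of cross-presenting dendritic cells, rose by 1.16 ± 0.28. These were the calls among 19 B cell, 24 T and NK cell and 8 dendritic cell markers, beside 2.46% of all genes. Glycam1, an L-selectin ligand of lymph node vessels, was at 0 in all 3 chronic_VCV libraries, against 163, 94.9, 115.7 and 3.95 in healthy_VCV. With a floor of 3 reads over the chronic_VCV group, against 435 reads pooled over healthy_VCV, it was at least 78.7-fold lower there. This bound covers counting error only and does not separate injury from number series. The lowest healthy_VCV value, 3.95, was again in 062, the only healthy_VCV library of the chronic_VCV number series. The pooled bound does not apply to 062 alone. Opcml, a neural adhesion protein, fell to 18.4, 15.2 and 17.8 in chronic_VCV, against 67.9, 62.9, 83.2 and 64.8 in healthy_VCV (adjusted p = 0.0451 in limma).

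**Figure D3:**
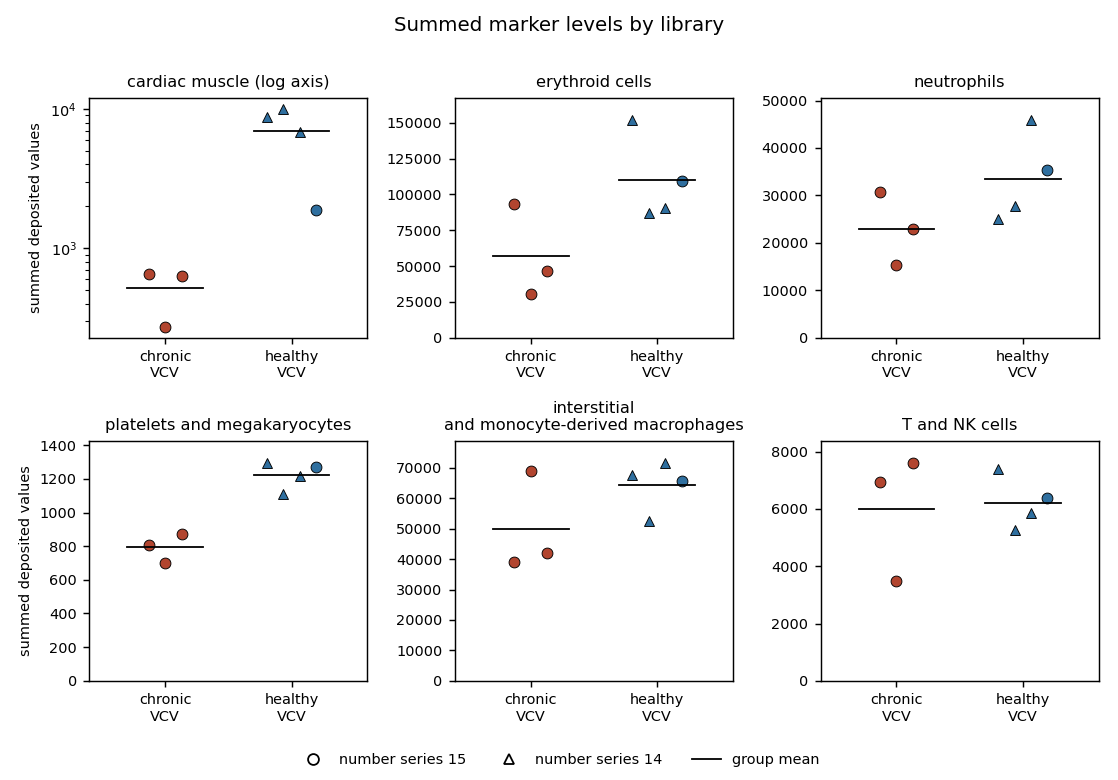
Summed deposited values of 6 marker lists (y axis) in each chronic_VCV library (left, n = 3) and healthy_VCV library (right, n = 4), with the cardiac panel on a log axis. Circles are number series 15, triangles series 14, and lines are group means. The cardiac sums of 273 to 655 in chronic_VCV lie below the 1891 of the healthy_VCV library of series 15.

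Epithelial markers gave 1 call, to be read beside the 2.46% called over all genes tested. Ager was at -0.02 ± 0.17 and Sftpc at 0.41 ± 0.22, neither called. Gprc5a, a receptor of type 1 and airway cells, was the 1 call of 13 type 1 markers: 15546, 6946 and 12656 in chronic_VCV, against 6115, 5997, 6510 and 6916 in healthy_VCV, a change of 0.80 ± 0.18 (adjusted p = 0.0282 in limma). Library 069 barely exceeded the highest healthy_VCV library. None of 13 type 2, 12 club cell or 14 ciliated cell markers passed in limma or edgeR. At an unadjusted p under 0.05 these lists held 2, 3 and 2 genes, beside 26.5% of all genes, and DESeq2 called 0, 3 and 1. Scgb1a1, the club cell secretoglobin, had 387298 (067), 148468 (069) and 176683 (073) in chronic_VCV and 156075 to 186820 in healthy_VCV. Muc5b, an airway mucin, had 234, 614 and 193 in chronic_VCV and 2038, 5357, 3022 and 471 in healthy_VCV, a change of -2.71 ± 0.76 (adjusted p = 0.0526 in limma) that was -0.63 within series 15. Endothelial and fibroblast markers had 0 calls of 19 and 0 of 12 in limma and edgeR, with 2 and 4 at an unadjusted p under 0.05 and 2 and 1 called in DESeq2.

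Ribosomal protein genes gave 2 rises. Of 62 tested, 54 lay above 0 with a median of 0.31, and 2 were called: Rps26 at 1.42 ± 0.30 and Rps9 at 0.53 ± 0.14 (adjusted p = 0.0274 and 0.0483 in limma). Quantile normalization called 7 higher, edgeR 3 and DESeq2 9. The median was 0.23 without 067 and 0.27 within series 15. Rps9 had 9665, 8339 and 8662 in chronic_VCV, against 6555, 5377, 6253 and 6504 in healthy_VCV. This family has many near-identical copies in the genome, so that single members are uncertain. In all, 38 of the 988 distinct list members tested passed, or 3.85%, beside 2.46% of all genes, and 30 of the 52 lists held 0 calls.

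**Figure D4:**
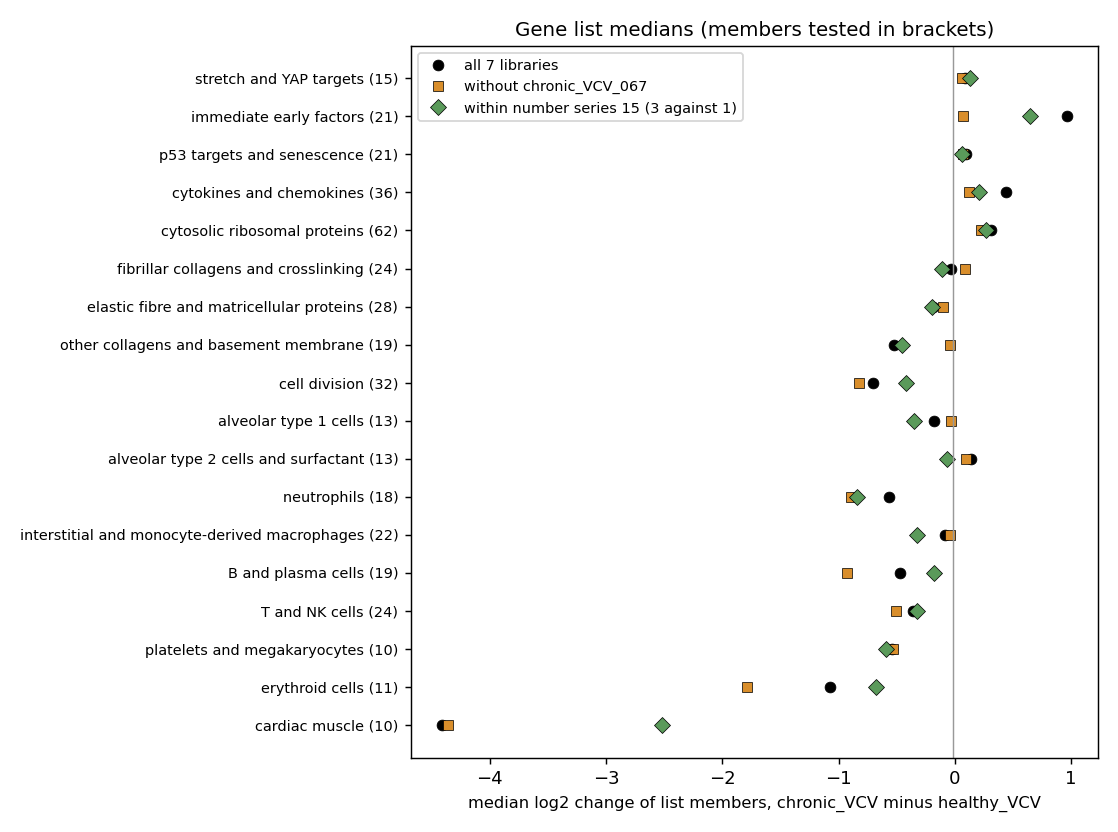
Median log2 change of the tested members (x axis) of 18 gene lists (y axis, members tested in brackets), for all 7 libraries, without chronic_VCV_067 and within number series 15. The grey line is the median of all genes, -0.02. The immediate early median falls to 0.07 without 067, against 0.97 with it, and the cardiac median stays lowest at -4.36 and -2.52.

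The same injury contrast under variable ventilation ran the other way for most of these genes. Of the 245 genes higher in chronic_VCV, 237 lay below 0 in chronic_noisy minus healthy_noisy, with a median of -0.54. Of the 122 lower genes 112 lay above 0, with a median of 0.59. Among all 14908 genes, 7528 lay below 0 there and 7380 above, with a median of -0.007. No library is shared by both contrasts. In that contrast alone 699 genes (4.69%) were called, 338 higher (2.27%) and 361 lower (2.42%), a split that edgeR gave as 447 and 276. Of the 245, 95 were called lower there and 2 higher. With the number series as a covariate, 1 gene was called in that contrast, and it was lower. In a fit of only its groups 1775 were called, 1130 higher and 645 lower. The difference between the contrasts, tested in the same fit, passed for 4435 genes (29.7%), 2090 positive (14.0%) and 2345 negative (15.7%). It passed for 237 of the 245 (96.7%) and for 93.4% of the 122, but the difference holds the same libraries that chose these genes. The number series lies the other way round here: all chronic_noisy libraries carry 14 and all healthy_noisy libraries 15. Injury and series thus coincide within the variable-ventilation contrast. Its covariate fit takes the series effect from the groups that hold both series, healthy_VCV and the acutely injured acute_noisy. That fit assumes the same series effect in every group. With the series as a covariate, 6 genes differed between the contrasts (Rasl11b, Ccdc136, Mme, Cygb, Ctrb1 and Tspan4), and the other differences did not pass.

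Capn12 shows the pattern. Its change was 2.55 ± 0.55 under constant and -2.85 ± 0.59 under variable ventilation, with 48.8, 32.3 and 48.5 in chronic_noisy, against 397, 300 and 258 in healthy_noisy, and the difference was 5.40 ± 0.81 (adjusted p = 0.000628 in limma). With the covariate that difference was 3.13 (adjusted p = 0.234). Myl7 had 433, 2296 and 814 in chronic_noisy and 0, 101 and 328 in healthy_noisy, a change of 4.85 ± 1.89 against -8.45 ± 1.77. The cardiac list had a median of 3.64 under variable ventilation with 0 of 10 called in that contrast in limma and edgeR, 3 in DESeq2 and 9 higher at an unadjusted p under 0.05. All 10 members differed between the contrasts, and none of them did with the covariate. Over all genes, 4352 of 14908 had an unadjusted p under 0.05 under variable ventilation.

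Ctgf was not lower under variable ventilation. It had 2299, 2719 and 2916 in chronic_noisy and 1780, 1991 and 2820 in healthy_noisy, so that the groups overlapped and the change was 0.29 ± 0.25 (adjusted p = 0.436 in limma). The difference between ventilation modes was 1.76 ± 0.34 (adjusted p = 0.00167 in limma), and 1.69 with the covariate (adjusted p = 0.17). For Sptb the change was -0.19 ± 0.36 under variable ventilation, a difference of -1.66 ± 0.49 (adjusted p = 0.0151 in limma). Rasl11b, with 512, 407 and 542 in chronic_noisy and 773, 648 and 1043 in healthy_noisy, differed by 1.74 ± 0.23, and by 2.12 with the covariate (adjusted p = 0.0147). Plau at 0.90 ± 0.33, which did not pass, and Trem2 at 1.8 ± 0.44, which did, were positive under variable ventilation too, with differences of 0.27 ± 0.45 and 0.00 ± 0.60 that did not pass. The call of Trem2 under variable ventilation was lost with the covariate, whose series effect comes from other groups.

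**Figure D5:**
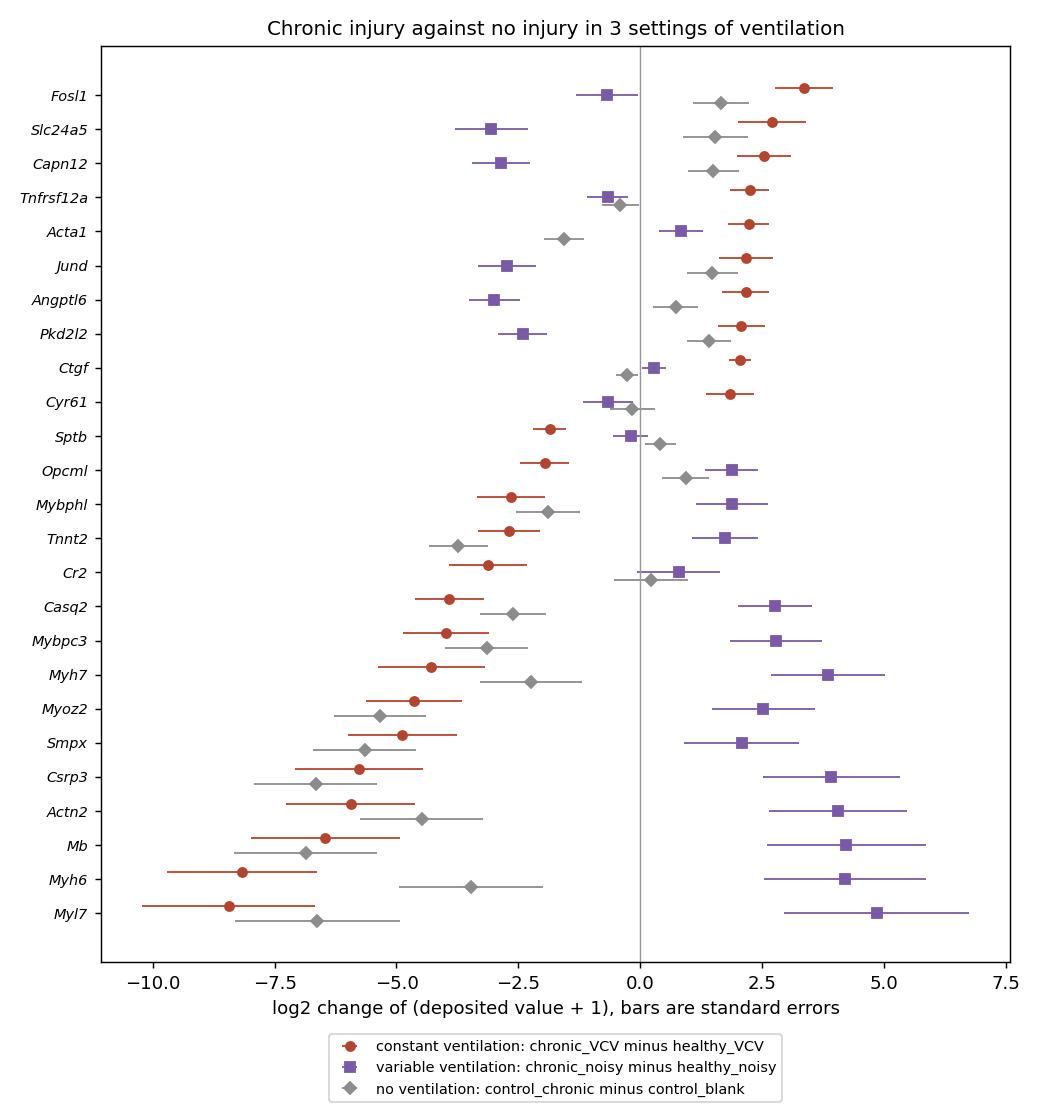
Log2 change with its standard error (x axis) of 25 genes (y axis) for chronic injury against no injury under constant, variable and no ventilation. The 12 striated muscle genes among the lowest, from -2.65 for Mybphl to -8.45 for Myl7 under constant ventilation, lie above 0 under variable and below 0 without ventilation, while Ctgf lies near 0 in both other settings.

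Without ventilation, Ctgf overlapped between injured and uninjured lungs. It had 2523, 4169, 4439, 3392 and 4526 in control_chronic and 3610, 4399 and 5710 in control_blank, a change of -0.27 ± 0.22 (adjusted p = 0.413 in limma). The difference from constant ventilation was 2.32 ± 0.32 (adjusted p = 0.00212 in limma). Healthy_VCV libraries, at 1295 to 1743, lay below every unventilated library for this gene. Cyr61 differed by 2.01 ± 0.67 and Tnfrsf12a by 2.65 ± 0.55 (adjusted p = 0.0336 and 0.00519 in limma). Acta1 had 54.0, 39.7, 30.6, 10.1 and 51.4 in control_chronic and 101, 96.8 and 95.1 in control_blank, a change of -1.57 ± 0.41 that passed (adjusted p = 0.0167 in limma), and the difference was 3.79 ± 0.59 (adjusted p = 0.00213 in limma). In the unventilated contrast 2214 genes (14.9%) were called, 1386 higher (9.30%) and 828 lower (5.55%), which edgeR gave as 710 and 1139 and a fit of only its groups as 425 and 441, and 3564 (23.9%) differed between it and constant ventilation, 1479 positive (9.92%) and 2085 negative (14.0%), a split that edgeR gave as 1820 and 1597. All control_chronic libraries carry series 18 and all control_blank libraries 12, so that injury and series cannot be told apart within the unventilated contrast. Neither series occurs in the ventilated chronic and healthy groups, so that series and ventilation cannot be told apart either.

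Cardiac genes were also lower in control_chronic than in control_blank, with 8 of 10 called lower and a median of -3.6, beside 5.55% of all genes called lower. Injury and number series coincide in that contrast. None of the 10 passed the test of the difference from constant ventilation in limma. Tnnc1, the cardiac troponin C, is not on that list and did differ, by 2.63. Cell division genes had 14 of 32 called lower without ventilation, with a median of -0.82, and 1 that differed from constant ventilation. For the ribosomal list the unventilated median was -0.37, and 31 of 62 members differed, beside 23.9% of all genes. Of the 245 genes higher in chronic_VCV, 170 (69.4%) differed from the unventilated contrast, as did 79 of the 122 lower genes (64.8%). These genes were chosen by the constant-ventilation contrast, which is part of that difference.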

How the data were processed

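Polyadenylated RNA was made into dUTP libraries that keep the strand, per the labels. The submitters' processing notes list CASAVA 1.8.0, BWA, bedtools 2.11, DESeq 1.8.3 and build rn4, with no roles, and the file headers give Ensembl 67. The authors deposited a signal per gene and library, read counts divided by a size factor. Checking the values, 100% came out as whole reads (tolerance 0.1 read) once divided by their library's step, which gave back each count. All value columns were used. Of 17002 genes, 489 have no name and 2786 a protein entry name, and these were not named. No replicates shared a library (lowest chi-square per gene 13.49). The labels number the libraries but do not say that each is a separate animal, so p-values measure the spread between these samples. Strand handling and shared reads in counting are not given in the sources used here.

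Genes with a mean of at least 10 over 28 libraries (14908) were fitted as log2(deposited value + 1) with limma 3.58.1 in R 4.3.3, with 1 mean for each of 8 groups, a trend and a robust prior, two-sided, Benjamini-Hochberg adjusted over all genes, threshold 0.05. Alternatives included edgeR 4.0.16 and DESeq2 1.42.0 on recovered reads and the number series as a covariate. Procedures were tested on simulated data. Intervals and floors cover counting error only. Intervals of a change are normal 95% intervals.

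Comparisons, the 52 lists (1081 of 1299 entries matched) and the alternatives were chosen with earlier results of these data known. Genes named were the 15 highest and 15 lowest changes that passed without overlap, if they had a symbol and the higher group averaged 50 or more; for each difference between contrasts the 5 highest and 5 lowest; and up to 6 called and 3 abundant members of each list. The text gives those it describes. Tables and plots were made in Python 3.11.15 (pandas 2.3.3, numpy 2.4.6, matplotlib 3.10.9).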

Additional observations from a re-analysis of the deposited data

Results flagged for a closer look

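Differences between injury contrasts. The change under constant ventilation differed from that under variable ventilation for 4435 genes, and from that without ventilation for 3564 genes, each tested directly in limma at an adjusted p under 0.05. Against variable ventilation, the positive differences of named genes, on the log2 scale, were led by Ctrb1, a digestive protease (6.28), Slc24a5 (5.75), Slc5a2, a glucose transporter of the kidney (5.75), Foxh1, a factor of nodal signalling (5.6), Mog, a myelin protein (5.41), and Capn12 (5.40). Jund (4.90), Fosl1 (4.04), Tnfrsf12a (2.92), Cyr61 (2.50) and Ctgf (1.76) followed. Negative differences were those of Myl7 (-13.30), Myh6 (-12.37), Mb (-10.69), Actn2 (-10.00), Csrp3 (-9.69) and Sptb (-1.66). Against the unventilated contrast, the differences were positive for Acta1 (3.79), Ccl7, a monocyte chemokine (3.37), Tnfrsf12a (2.65), Tnnc1, the cardiac troponin C (2.63), Gng8, a G protein subunit (2.56), Ctgf (2.32) and Cyr61 (2.01). They were negative for RNase_MRP, an RNA subunit (-5.43), Muc5b (-4.02) and Sptb (-2.27). Of these genes, Ctrb1 was among the 6 that still differed from variable ventilation with the number series as a covariate.

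Single libraries far from their group. In healthy_VCV, Batf3 was highest in 060 at 31.5, Add2 in 025 at 340, F3 in 057 at 3378 and Sftpc in 062 at 232978, each with a gap to the next library that exceeded Dixon's critical value. Of 98 groups of library values tested for outliers, 4 met this condition, and chance alone gives about 1 in 20.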

How the results depend on the processing

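No paired analysis was possible because chronic_VCV and healthy_VCV have no library number in common. The 367 genes called became 686 with quantile normalization, 1423 with DESeq2, 1255 in a fit of only the groups compared, 2 with the number series as a covariate and 0 within series 15; leaving out 1 library gave 2 (without 067) to 1046 (without 069). The groups-only fit split 422 higher to 833 lower, against 245 to 122. A pseudocount of 10, no filter and edgeR gave 430, 303 and 382. The 4435 genes that differed from variable ventilation became 6 with the covariate, and 2535 (without 067) to 4765 when 1 library was left out; leaving out chronic_noisy 084 gave 2766 and healthy_noisy 061 gave 2797. The 3564 that differed from no ventilation became 1150 without 067 and 943 without control_blank 016, with 4933 at most; the covariate cannot be estimated there. The leave-one-out fits of the noisy and control libraries were added after seeing the data. Of 59 genes named as called, 59 remained called with quantile normalization and with DESeq2, 52 with edgeR, 50 in the groups-only fit, 10 without healthy_VCV 025, 2 without 067 and 0 within series 15, and 0 changed sign. The cause was not tested. Depth was lowest in 067, at 11280590 reads, which limits the precision of low genes most there.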
